A study of Mus musculus with 3 samples.

Results

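The genes described here are 40 antiviral interferon-stimulated genes, which code for the proteins that sense viral nucleic acids in a cell and for the effectors that act on them. They were chosen by name from what is known of the interferon response, and with earlier results of these data known. A probe was assigned to one of them when its platform symbol was the gene's current or older symbol. Of the 40 genes, 39 had a named probe, with 42 probes in all, and all 39 were detected on all 3 arrays, out of 15625 genes detected on all 3 arrays and 19316 genes with a named probe. The remaining gene, Ifi44, had no probe named with its symbol and was not analysed here.

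The arrays measured RNA of cultured synovial cells from the pannus, the invasive tissue of inflamed joints, of arthritic D1BC mice. These are DBA/1 mice with a transgene in which the promoter and enhancer of rat type II collagen drive B7.1 (CD80), and arthritis was induced in them with a low dose of bovine type II collagen. The cultures held fibroblast-like synoviocytes (FLSs, CD45-) together with macrophages (CD45+), so that an array averages over both. Cells received CTLA-4-Ig (abatacept, the extracellular part of CTLA-4 fused to the Fc region of human IgG), human IgG (hIgG) or only the medium (vehicle) for 48 h, with 1 array for each condition. The comparison asks how the expression of synovial cells differs when CTLA-4-Ig, a ligand of CD80 and CD86, is present.

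All 3 conditions thus shared the transgene, the arthritis and the culture medium. Both proteins were given at 100 μg by the sample titles and at 100 μg/ml by the study's methods, whereas the protocol in the labels states 100 mg/ml. The labels give no age of the mice, and the study's methods give one only where they describe the induction of arthritis. The sources used here do not say how many mice the cultures came from or whether cells were pooled. With 1 array for each condition no test was possible, the number of arrays limits the precision, and every difference below is one between these 3 arrays.

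Interferons are secreted by cells that detect foreign or misplaced nucleic acid, and they act through a receptor on the same and on neighbouring cells. Type I interferons, through the kinases Jak1 and Tyk2, activate a transcription factor complex with Stat2 and Irf9 (ISGF3), which binds a short element, the interferon-stimulated response element, in front of the induced genes. The induced proteins include more sensors, which raise the alarm further, and effectors that cut, edit or sequester RNA, stop translation or hold virions at membranes. Raised levels of such genes in blood and synovium are a known feature of a part of patients with rheumatoid arthritis.

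Signals are given as in the deposited normalized table, in which the median of the detected signals of each array is set to 25. Ratios between arrays are log2 ratios of these signals (CTLA-4-Ig/hIgG is CTLA-4-Ig relative to hIgG), averaged over the probes where a gene had more than 1. On each array 81.4% to 84.0% of 23473 probes were detected, and positive control spots within an array varied by 6.30% to 13.5% (coefficient of variation). The median log2 ratio of all 15625 genes was 0.09 for CTLA-4-Ig/hIgG, 0.11 for CTLA-4-Ig/vehicle and 0.03 for hIgG/vehicle, with standard deviations of 0.26, 0.27 and 0.24 over genes. Counts of genes as lower or higher than all genes are therefore made against these medians. A difference of 1.5-fold either way was used to count single genes.

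The label of the cells, which names fibroblast-like synoviocytes alone, was set against marker genes. All 10 fibroblast markers were detected, with summed signals of 34175 with CTLA-4-Ig, 30048 with hIgG and 31481 with vehicle. All 10 macrophage markers were detected too, with sums of 39591, 36701 and 34128 in the same order, so that the arrays also hold the RNA of macrophages. Lyz2 alone gave 32021, 28785 and 27289 of these sums, and Vim 16820, 14496 and 14728 of those of the fibroblast markers. The T cell markers Cd3e and Cd3g did not reach detection on every array, and the 5 detected T cell markers had mean signals of at most 14.6. B cell, plasmacytoid dendritic cell and natural killer cell markers were likewise dim where they were detected, with mean signals between 1.18 and 10.7. Of 5 neutrophil markers Ly6g and S100a8 were detected, and of 5 endothelial markers 4 were, with mean signals of at most 59.6 and 56.2.

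By the median of each family the antiviral genes were lower with CTLA-4-Ig than with hIgG in every family, and most of them were highest on the hIgG array. The IFIT genes, the MX genes, Isg15, Rsad2, Cmpk2, Ifih1 and Xaf1 stood furthest down. Against vehicle these genes differed less, and the OAS and ISG15 families lay close to vehicle. Oas3, at dim signals, was the 1 member 1.5-fold higher than with hIgG.

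For CTLA-4-Ig/hIgG, 36 of 39 members lay below the all-gene median and 3 above it, where 50% of all genes lie on each side. Their median log2 ratio was -0.45, which is -0.54 relative to all genes. Of the 39, 13 (33.3%) were at least 1.5-fold lower, against 1.13% of all 15625 genes, and 1 (2.56%) was at least 1.5-fold higher, against 3.4% of all genes. None was 2-fold lower (0.192% of all genes), and Oas3 was 2-fold higher (0.435% of all genes). The 13 genes were Ifih1, Oas1g, Oasl2, Ifit1, Ifit2, Ifit3, Mx1, Mx2, Isg15, Rsad2, Cmpk2, Xaf1 and Trim30a. At the limit, Oas1g lay just inside with a log2 ratio of -0.59 and Oas1a just outside with -0.55. When only probes with a mean signal of 25 or more were kept, 36 members remained, and again 13 were 1.5-fold lower (0.469% of 8521 such genes), with Rnf213 by its bright probe in place of Mx1, and 0 were higher (0.739%).

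Against vehicle, 30 of the 39 members lay below the all-gene median and 9 above it on the CTLA-4-Ig array. The median log2 ratio was -0.08, or -0.19 relative to all genes. Only Ifit1 was at least 1.5-fold lower (2.56%, against 0.992% of all genes) and only Oas3 was 1.5-fold higher (4.44% of all genes), being also 2-fold higher (0.653%). Among the brighter probes no member was 1.5-fold higher (0.728% of such genes) and 1 was lower (0.141%). For hIgG/vehicle, 37 members lay above the all-gene median and 2 below it, with a median of 0.34, or 0.31 relative to all genes. Oas1a, Oas3, Oasl2 and Trim30a were at least 1.5-fold higher with hIgG (10.3% of members, against 1.94% of all genes) and 0 were 1.5-fold lower (1.6% of all genes). None was 2-fold higher (0.224% of all genes), and among the brighter probes 3 members were 1.5-fold higher (0.352% of such genes) and 0 lower (0.329%). The comparisons share arrays, so that they are not independent of each other.

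By the order of the arrays, 34 members (87.2%) had their highest signal with hIgG, against 23% of all genes. The lowest signal was on the CTLA-4-Ig array for 26 members (19.2% of all genes), on the vehicle array for 12 (45.9% of all genes) and on the hIgG array for 1 (34.9%). Zbp1, Oas3, Ifi27 and Lgals3bp were highest with CTLA-4-Ig (56.5% of all genes) and Samd9l with vehicle (20.5%). Both at once, highest with hIgG and lowest with CTLA-4-Ig, held for 25 members (64.1%), against 10.1% of all genes. In 10 members the log2 ratio against hIgG lay below the median of all genes, while the signal was not below vehicle. They were Zbp1, Oas1a, Oasl2, Usp18, Herc6, Isg20, Ifitm1, Ifitm3, Parp9 and Dtx3l. Relative to all genes, Oas1a (-0.06), Usp18 (-0.09) and Ifitm3 (-0.02) lay below vehicle too, and Zbp1 was above hIgG in signal (0.04). The share of all genes in such a group was not counted.

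In a culture of mixed cells, fewer cells of a type and less RNA in each cell cannot be told apart. The macrophage markers had median log2 ratios of -0.06, 0.04 and 0.15 for CTLA-4-Ig/hIgG, CTLA-4-Ig/vehicle and hIgG/vehicle, with 8 of 10 below the all-gene median for CTLA-4-Ig/hIgG and 10 of 10 above it for hIgG/vehicle. The fibroblast markers had medians of 0.12, 0.12 and -0.06 in this order, which is kept below. The part of the cell types in the differences of the antiviral genes was not tested. The low counts also depended on the processing. The scanner's background column followed the signal of the spots with correlations of 0.990 to 0.997 of the log2 values. With normexp on this column (a background correction, offset 50), followed by quantile normalization, 0 members were 1.5-fold lower than with hIgG. The relative median was then -0.00725, and 15 of 39 ratios against hIgG and 17 of 39 for hIgG/vehicle changed sign.

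**Figure D1:**
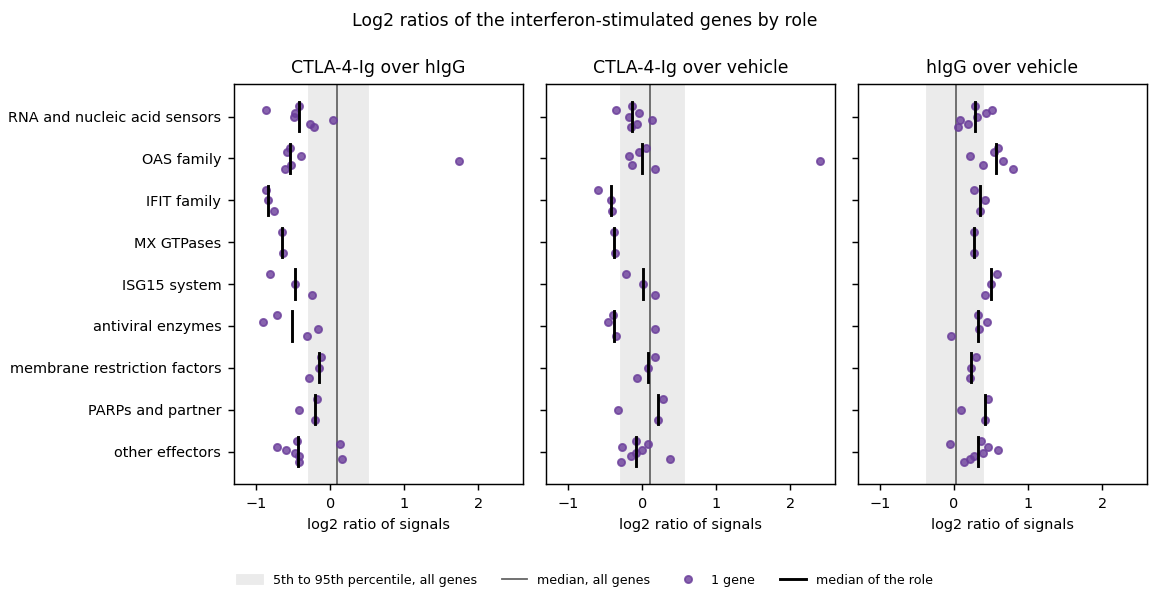
Log2 ratios of 39 antiviral interferon-stimulated genes (points) by role, for each pair of arrays, with the median of each role as a black bar. The grey line and band mark the median and the range from the 5th to the 95th percentile of all 15625 genes. Most points lie left of the band for CTLA-4-Ig/hIgG, and the point far to the right is Oas3.

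**Figure D2:**
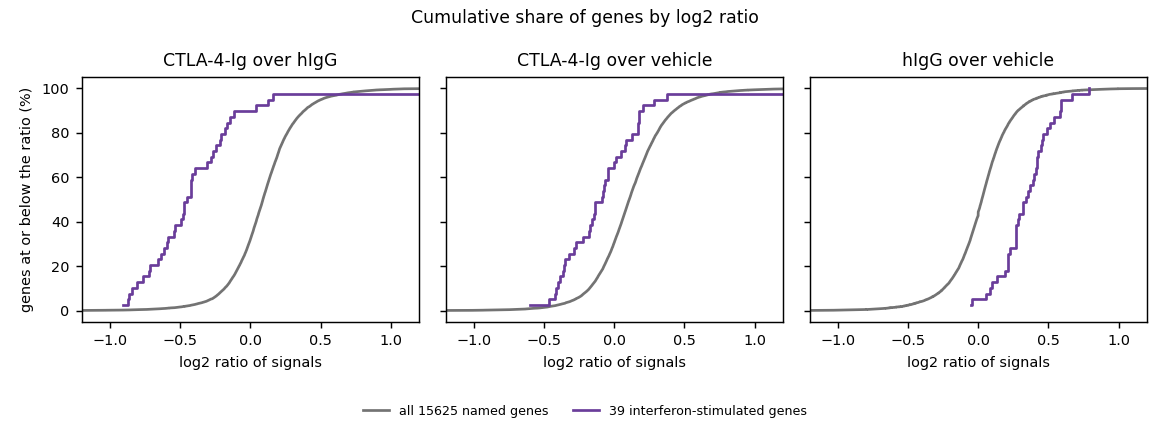
Share of genes (percent, vertical axis) at or below a given log2 ratio (horizontal axis), for all 15625 named genes in grey and the 39 antiviral genes in purple. The purple line runs left of the grey line for CTLA-4-Ig/hIgG (medians -0.45 and 0.09), less so against vehicle (-0.08 and 0.11), and right of it for hIgG/vehicle (0.34 and 0.03). Oas3 lies beyond the right end of the axis against hIgG and against vehicle.

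The promoters of these genes were searched for the core of the interferon-stimulated response element. The core was searched as GAAANNGAAA on both strands, counting overlapping matches, in RefSeq promoter windows of build GRCm38.p6 (250 bases before to 50 bases after each annotated start). Of the 40 members 30 had a window, and 13 of these (43.3%) held the core, against 3.99% of 27025 genes with a window. At least 2 cores stood in the windows of 7 members, against 0.266% of all genes. A match is only a match of letters, not a shown binding site. The 13 members with a core, Ddx58, Ifih1, Eif2ak2, Oas1a, Oas1g, Oas3, Ifit1, Ifit3, Isg15, Rsad2, Ifitm3, Bst2 and Trim30a, had a median CTLA-4-Ig/hIgG log2 ratio of -0.59 (from -0.87 to 1.74). The 16 measured members with a window and no core had a median of -0.37 (from -0.91 to 0.16), and the 10 without a window in the table -0.42. Members with and without a core lay closer against vehicle, with medians of -0.14 and -0.08, and for hIgG/vehicle, with 0.35 and 0.38, and the difference between them was not tested.

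The following stretches of 170 bases directly before the annotated start show how the core is placed in genes that the results turn on. They were chosen after their values were seen, and are written 5′ to 3′ on the strand of the gene, with the bases of the core in capitals in either orientation. Isg15, Ifit1, Ifit3 and Rsad2 were lower with CTLA-4-Ig than on both other arrays, and Oas1a and Oas1g are neighbouring genes that were lower than with hIgG and close to vehicle.
Isg15, chr4:156200819-156200988, minus strand: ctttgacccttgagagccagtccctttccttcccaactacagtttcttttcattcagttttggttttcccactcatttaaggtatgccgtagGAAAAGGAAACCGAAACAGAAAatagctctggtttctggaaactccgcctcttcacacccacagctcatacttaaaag
Ifit1, chr19:34640719-34640888, plus strand: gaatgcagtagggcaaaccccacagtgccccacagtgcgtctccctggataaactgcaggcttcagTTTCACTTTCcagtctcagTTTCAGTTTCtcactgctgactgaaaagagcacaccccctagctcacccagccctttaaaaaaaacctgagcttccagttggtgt
Ifit3, chr19:34583359-34583528, plus strand: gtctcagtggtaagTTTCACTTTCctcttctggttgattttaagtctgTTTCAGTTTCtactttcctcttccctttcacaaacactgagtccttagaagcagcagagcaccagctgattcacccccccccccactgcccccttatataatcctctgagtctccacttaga
Rsad2, chr12:26456453-26456622, minus strand: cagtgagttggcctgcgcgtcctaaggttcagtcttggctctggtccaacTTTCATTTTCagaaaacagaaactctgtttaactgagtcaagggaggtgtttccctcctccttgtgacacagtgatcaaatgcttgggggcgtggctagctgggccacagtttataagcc
Oas1a, chr5:120907526-120907695, minus strand: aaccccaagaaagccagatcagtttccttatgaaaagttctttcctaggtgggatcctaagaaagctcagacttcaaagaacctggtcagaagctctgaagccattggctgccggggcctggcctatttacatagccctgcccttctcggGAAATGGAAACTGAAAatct
Oas1g, chr5:120887614-120887783, minus strand: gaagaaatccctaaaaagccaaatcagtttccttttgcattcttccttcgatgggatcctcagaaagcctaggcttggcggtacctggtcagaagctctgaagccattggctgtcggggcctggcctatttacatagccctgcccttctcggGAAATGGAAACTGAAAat

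In Isg15 the capitals hold 3 overlapping cores, which begin 78, 72 and 66 bases before the start. Ifit1 has its 2 cores at 104 and 85 bases before the start and Ifit3 at 156 and 122, and Rsad2 has 1 at 120, all of them in the reverse orientation. In Oas1a and Oas1g the overlapping cores begin only 20 and 14, and 18 and 12, bases before the start. Set against each other with a shift of 2 bases, the stretches of Oas1a and Oas1g were identical at 123 of 168 bases (73.2%).

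Among the sensors, Ifih1 (MDA5, the helicase that binds long double-stranded RNA) stood out. Its signals were 43.5 with CTLA-4-Ig, 79.3 with hIgG and 55.7 with vehicle, and the log2 ratio was -0.87 against hIgG and -0.36 against vehicle. It was thus 1.82-fold lower than with hIgG, with vehicle between them. Ddx58 (RIG-I, which binds RNA with a triphosphate end) had signals of 152 with CTLA-4-Ig, 204 with hIgG and 168 with vehicle. Dhx58 (LGP2, a helicase of the same family that tunes both) had 66.1, 91.7 and 68.3 in the same order. For Dhx58 the CTLA-4-Ig and vehicle arrays lay close together and hIgG stood above them. For Ddx58 vehicle lay between, with log2 ratios of -0.14 for CTLA-4-Ig/vehicle and 0.28 for hIgG/vehicle. Relative to all genes these were -0.25 and 0.26.

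Eif2ak2 (PKR, a kinase that stops translation when it binds double-stranded RNA) gave signals of 27.8, 39.1 and 31.4, with a log2 ratio of -0.49 against hIgG. Adar, which edits adenosine to inosine in double-stranded RNA, had 35.6, 42.9 and 37.5, and Trim25, a ubiquitin ligase that acts on the RIG-I pathway, 161, 186 and 179. These genes kept the same order of arrays, at smaller distances for Adar and Trim25, with -0.27 and -0.21 against hIgG. The exception among the sensors was Zbp1, which binds nucleic acids in the Z form and can start necroptosis. Its signals were 94.7 with CTLA-4-Ig, 92.0 with hIgG and 86.7 with vehicle, nearly level on the 3 arrays and highest with CTLA-4-Ig. Over the 7 genes, the sensors together with Adar and Trim25, the median log2 ratios were -0.42, -0.14 and 0.28 for CTLA-4-Ig/hIgG, CTLA-4-Ig/vehicle and hIgG/vehicle.

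The OAS enzymes make short chains of linked adenosines, which switch on the nuclease RNase L. Oas1a and Oas1g, which both make these chains in mice, were very much alike in their order. Oas1a had signals of 277 with CTLA-4-Ig, 404 with hIgG and 268 with vehicle, and Oas1g had 250.1, 375 and 258. In both, hIgG stood alone and the other 2 arrays lay together, with log2 ratios for hIgG/vehicle of 0.59 and 0.54. The coding sequences of the Oas1 genes are closely related, so that their probes may share RNA, which was not tested. Oasl2, an OAS-like protein, had signals of 86.7 with CTLA-4-Ig, 133 with hIgG and 76.7 with vehicle, the widest step from vehicle to hIgG among the members (1.73-fold higher). Its vehicle signal was the lowest of the 3, and the log2 ratio of CTLA-4-Ig/vehicle was 0.18.

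Oasl1, which in mice restrains the translation of Irf7, gave 54.6, 79.0 and 60.0 in the order CTLA-4-Ig, hIgG and vehicle, and Oas2 gave 72.5, 95.5 and 82.3. Both had hIgG at the top and CTLA-4-Ig at the bottom. Oas3 ran against its family with signals of 9.0 with CTLA-4-Ig, 2.7 with hIgG and 1.7 with vehicle. Its log2 ratios were 1.74 against hIgG and 2.41 against vehicle, the highest of all members, but they rest on 1 probe far below the array median of 25. Oas2 and Oas3 are neighbours on chromosome 5, and so are Oas1g and Oas1a, and Oasl2 and Oasl1. Over the 6 OAS genes the medians were -0.54 for CTLA-4-Ig/hIgG, 0.00 for CTLA-4-Ig/vehicle and 0.57 for hIgG/vehicle.

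All 3 IFIT genes were lower with CTLA-4-Ig than with either control. IFIT proteins bind viral RNA that lacks the host's cap methylation and block its translation. Ifit1 had signals of 94.6 with CTLA-4-Ig, 173 with hIgG and 143 with vehicle. It was 1.83-fold lower than with hIgG and 1.52-fold lower than with vehicle, the only member 1.5-fold lower than both controls. Ifit2 had 19.0, 34.1 and 25.5 in the same order, and its neighbour Ifit3 had 83.7, 142 and 111. Their log2 ratios were -0.84 and -0.76 against hIgG and -0.42 and -0.41 against vehicle, so that for these genes CTLA-4-Ig lay about as far below vehicle as vehicle lay below hIgG (0.42 and 0.35). Ifit1 and Ifit3 carry the cores shown above, whereas the windows of Ifit2 held no core.

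The MX proteins are dynamin-like GTPases that trap viral components, in mice Mx1 in the nucleus and Mx2 in the cytoplasm. Both genes are annotated as transcribed pseudogenes in the RefSeq reference, which is of the C57BL/6J strain, as many laboratory mice carry defective copies. Mx2 had signals of 20.0 with CTLA-4-Ig, 31.1 with hIgG and 25.8 with vehicle, with a log2 ratio of -0.64 against hIgG and -0.37 against vehicle. Mx1 averaged 12.7, 20.0 and 16.6 over its 2 probes, but these differed. The first gave 12.1, 13.7 and 11.6, and the other 13.3, 29.3 and 23.7, so that the call of Mx1 rests on the latter, whose log2 ratio against hIgG was -1.14, while that of the first was -0.18.

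Isg15, a ubiquitin-like protein that is attached to other proteins, had signals of 175 with CTLA-4-Ig, 307 with hIgG and 205 with vehicle. It was 1.75-fold lower with CTLA-4-Ig than with hIgG and 1.17-fold lower than with vehicle, so that hIgG stood apart. Usp18, which removes Isg15 from proteins and damps the interferon receptor, gave 160.3, 223 and 159 in the same order. Herc6, the main Isg15 ligase in mice, gave 29.7, 35.3 and 26.5. For Usp18 CTLA-4-Ig and vehicle were level, and for Herc6 vehicle was the lowest, while hIgG was the highest for both. The medians of the 3 genes were -0.48, 0.02 and 0.49 for the comparisons in this order.

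Rsad2 and Cmpk2 are neighbours on chromosome 12 and work in sequence. Cmpk2 is a nucleotide kinase of mitochondria, and Rsad2 (viperin) turns CTP into a nucleotide that ends viral RNA chains. Cmpk2 had signals of 48.1 with CTLA-4-Ig, 90.4 with hIgG and 66.4 with vehicle, and its log2 ratio against hIgG of -0.91 (1.88-fold lower) was the lowest of all members. Rsad2 had 178, 293 and 235 in the same order, a 1.64-fold lower signal than with hIgG. On both, vehicle lay between the other arrays, and CTLA-4-Ig/vehicle was -0.46 for Cmpk2 and -0.40 for Rsad2.

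Isg20, an exonuclease that degrades RNA, differed little, with 42.4, 47.5 and 37.5, and was lowest with vehicle. Samd9l, a restriction factor that inhibits translation, was the only member with its highest signal on the vehicle array, at 352 with CTLA-4-Ig, 437 with hIgG and 449 with vehicle. The CTLA-4-Ig array stood alone for it, with log2 ratios of -0.31 against hIgG and -0.35 against vehicle, and hIgG/vehicle was -0.04.

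The membrane factors showed small differences. Ifitm3, which blocks the fusion of viruses in endosomes, had signals of 2568 with CTLA-4-Ig, 2841 with hIgG and 2423 with vehicle, and Ifitm1, its neighbour that acts at the cell surface, 7.09, 7.7 and 6.3. Bst2 (tetherin, which holds budding virions on the cell) had 274, 334 and 288. All 3 were highest with hIgG, but none was more than 1.22-fold lower with CTLA-4-Ig, and only Bst2 was lowest there. The medians were -0.15, 0.08 and 0.23.

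Parp14, Dtx3l and Parp9 lie next to each other on chromosome 16. Parp14 attaches ADP-ribose to proteins, and Parp9 and the ubiquitin ligase Dtx3l form a complex. Parp9 had signals of 119 with CTLA-4-Ig, 134 with hIgG and 97.5 with vehicle, and Dtx3l 81.5, 94.3 and 70.6. Their order was the same, with hIgG at the top and vehicle at the bottom, and CTLA-4-Ig/vehicle was 0.28 and 0.21. Parp14 had CTLA-4-Ig at the bottom, with 43.5, 58.2 and 54.3 as the mean of its 2 probes, which gave 12.8, 18.1 and 18.2 and 147, 187 and 162. The log2 ratio of Parp14 against vehicle was -0.32, on the other side of 0 from its neighbours.

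Among the other effectors, Xaf1, which binds an inhibitor of apoptosis, had signals of 34.4 with CTLA-4-Ig, 56.8 with hIgG and 41.5 with vehicle and was 1.65-fold lower than with hIgG. Trim30a, which in mice restrains NF-kB signaling, had 197, 297 and 197 in the same order. For Trim30a the CTLA-4-Ig and vehicle arrays were level and hIgG stood 1.51-fold above vehicle, whereas for Xaf1 vehicle lay between. Sp100, a component of nuclear bodies, had 79.5, 110.3 and 84.3, and Ifi35 127, 174 and 135. Rtp4, a chaperone of membrane receptors, had 518, 693 and 574. These 3 genes had hIgG above the other arrays, which lay within 1.11-fold of each other. Rnf213, a very large ubiquitin ligase, had a mean of 38.4, 51.4 and 46.9 over its 2 probes, of which the bright one gave 186, 293 and 236 and the dim one 7.91, 9.0 and 9.3.

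Ifi27 and Lgals3bp were the remaining members above the all-gene median against hIgG, besides Oas3. Ifi27, a small protein of mitochondrial membranes, had signals of 1276 with CTLA-4-Ig, 1169.6 with hIgG and 1209 with vehicle, and it was the only member lowest with hIgG. Lgals3bp, a secreted glycoprotein that binds galectins, had 958, 855 and 739.8, with log2 ratios of 0.16 against hIgG and 0.37 against vehicle. The distances for Ifi27 were small, at 0.13 and 0.08, while Lgals3bp stepped down from CTLA-4-Ig through hIgG to vehicle.

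**Figure D3:**
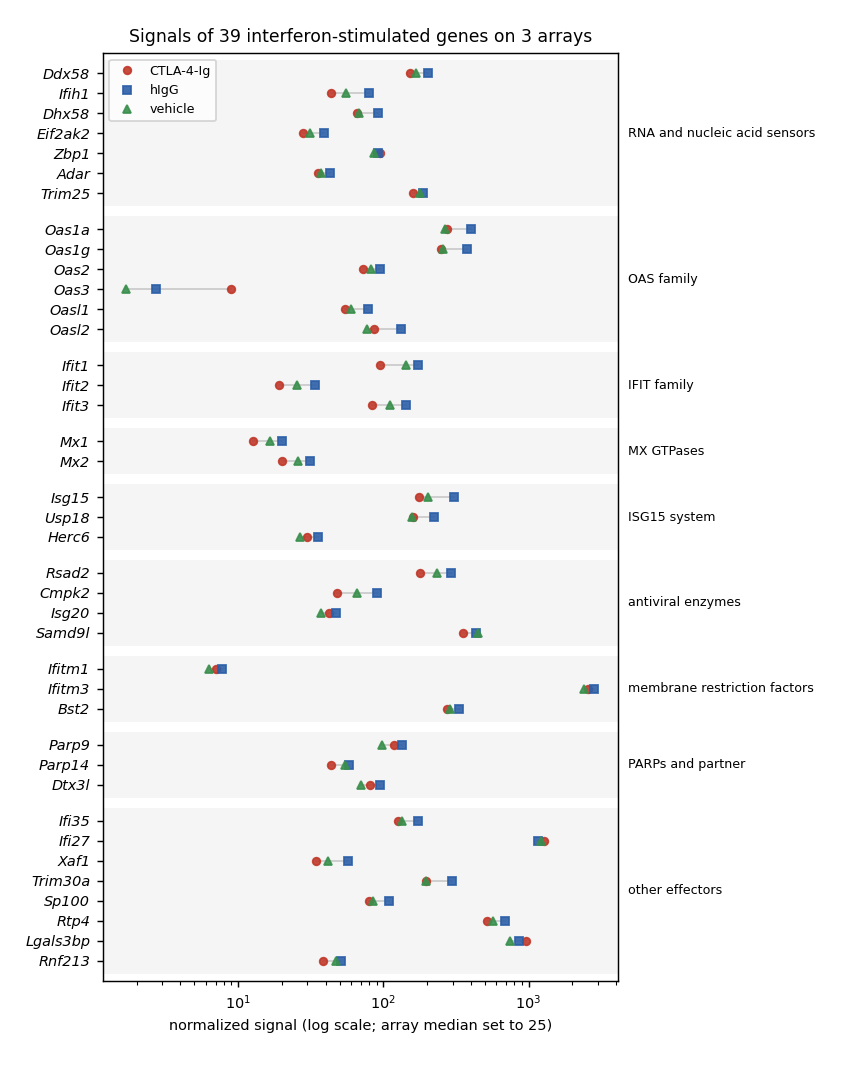
Normalized signals (horizontal axis, log scale, array median 25) of the 39 measured antiviral genes on the CTLA-4-Ig (red circles), hIgG (blue squares) and vehicle (green triangles) arrays, grouped by role, with 1 array for each condition and a grey line over the range. The blue square is rightmost for 34 genes, and the wide step of Oas3 lies below a signal of 10.

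The pathway that induces these genes was examined next. The list of the receptor and ISGF3 pathway, which also takes in Irf3, Irf7 and Socs1, held 9 genes measured here. Of these 9 genes 6 were highest with CTLA-4-Ig and 3 with hIgG, against 56.5% and 23% of all genes, and their median log2 ratios were 0.08, 0.10 and 0.12, with 5 below and 4 above the all-gene median for CTLA-4-Ig/hIgG. None was 1.5-fold apart in any comparison. The receptor chains Ifnar1 and Ifnar2 had signals of 204, 202 and 168 and of 58.5, 53.5 and 53.4 with CTLA-4-Ig, hIgG and vehicle. The kinases Jak1 and Tyk2 had 579, 502 and 540.3 and 126, 119 and 118.

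Within this list the transcription factors Irf7, Irf9 and Stat2 were the ones highest with hIgG. Irf7, which drives the interferon genes themselves, had signals of 82.7 with CTLA-4-Ig, 106 with hIgG and 74.6 with vehicle, with log2 ratios of -0.36, 0.15 and 0.51 for the comparisons in this order. Irf9 had 222, 253 and 218 and Stat2 107, 129 and 118, smaller steps than that of Irf7. Irf3, which acts without being induced, had 143, 124 and 114, and Socs1, an inhibitor of the kinases, 21.2, 17.8 and 19.7. Both were highest with CTLA-4-Ig.

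Adaptors and kinases that carry the signal from the sensors differed little. Of 10 listed genes 9 were detected (Traf3 had no named probe), and 8 of these lay below the all-gene median for CTLA-4-Ig/hIgG, with a median of -0.08. Mavs, the adaptor of Ddx58 and Ifih1 on mitochondria, was level at 109 with CTLA-4-Ig, 113 with hIgG and 115 with vehicle. Tlr7, an endosomal receptor of single-stranded RNA, had 88.7, 113 and 86.7, and Mb21d1 (cGAS, the sensor of cytosolic DNA) 12.2, 15.1 and 11.3. These were the lowest against hIgG, at -0.34 and -0.30, with hIgG above both other arrays. Tmem173 (STING, the adaptor of cGAS) was highest with CTLA-4-Ig, at 94.9, 85.3 and 74.9, and so was the kinase Tbk1, at 159, 151 and 136. Myd88 had 318, 362 and 314, Ikbke 30.5, 31.7 and 27.6, Tlr3 13.7, 14.5 and 12.6 and Ticam1 9.81, 11.4 and 12.2.

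The interferon genes themselves were mostly dim, with mean signals from 1.25 to 61.5 among those detected on all 3 arrays. Of 18 listed ligands 16 had a named probe and 13 were detected on all 3 arrays, with median log2 ratios of 0.17, 0.19 and 0.08, close to those of all genes. Ifnb1, the type I interferon that fibroblasts and macrophages make first, had signals of 3.46 with CTLA-4-Ig, 4.1 with hIgG and 3.3 with vehicle. Ifng, the type II interferon, had 3.72, 2.6 and 2.6. Ifne, an interferon of epithelia, and Ifna7 were the highest against hIgG, with 8.41, 4.6 and 4.3 and 1.65, 1.0 and 1.1, and they were the 2 ligands past 1.5-fold. Ifna9, with 13.6, 14.4 and 12.8, and Ifnb1 were the lowest against hIgG, at -0.08 and -0.24. At the signals of Ifnb1, Ifng and Ifna7 a step of 1 unit already makes a large ratio.

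**Figure D4:**
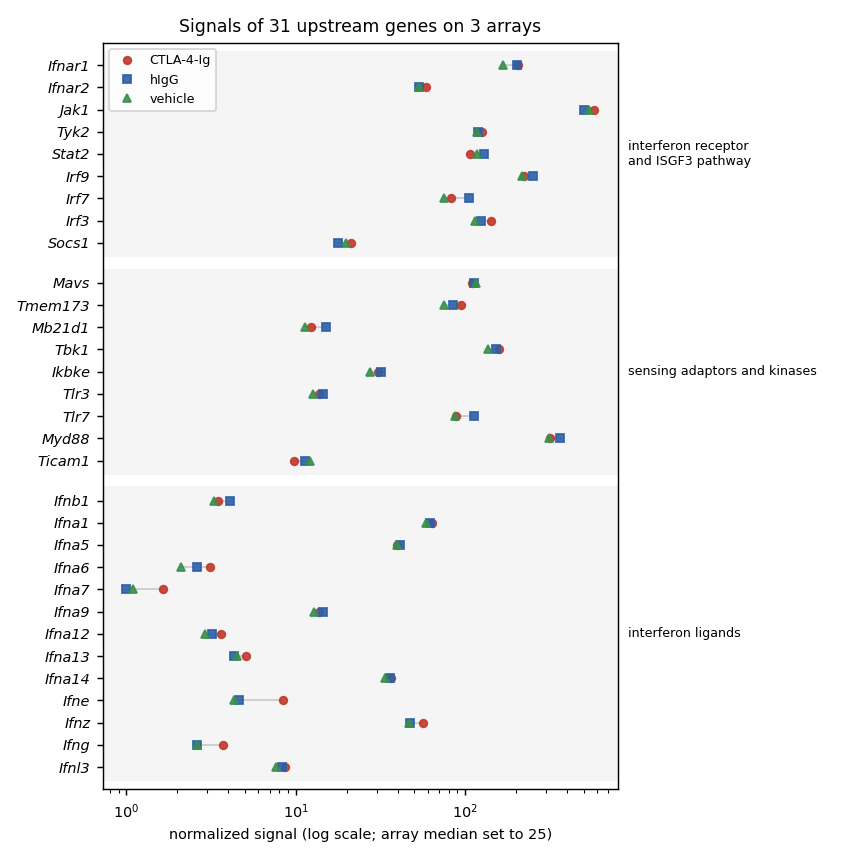
Normalized signals (horizontal axis, log scale, array median 25) of 31 genes of the interferon pathway upstream of the antiviral genes, in the same symbols, with 1 array for each condition. Vehicle was lowest for 6 of 9 genes of the receptor and ISGF3 list, 7 of 9 adaptors and kinases and 10 of 13 ligands. Over all genes this share was 45.9%. CTLA-4-Ig was highest for 6, 2 and 10 of them, against 56.5% of all genes. The red circles of Ifne and Ifna7 lie to the right at signals below 10.

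Among the macrophage markers Fcgr1, the high-affinity receptor for IgG, stood furthest from the rest. It had signals of 235 with CTLA-4-Ig, 408 with hIgG and 231 with vehicle, with log2 ratios of -0.80, 0.02 and 0.82. The other 9 macrophage markers lay between -0.34 (Cd14) and 0.28 (Cd68) for CTLA-4-Ig/hIgG and between 0.07 (Itgam) and 0.26 (Adgre1) for hIgG/vehicle.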

How the data were processed

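RNA of cultured synovial cells was measured on 1 array per condition (CTLA-4-Ig, hIgG and vehicle), and samples were grouped by the treatment in their labels. The authors labelled RNA with Cy5, hybridized it to Toray 3D-Gene mouse oligo chips and scanned the spots. They deposited the scanner's intensity values by spot and, for each probe, a normalized intensity, background-subtracted and scaled to a median of 25 per array, on a linear scale. In the normalized table undetected probes are empty, and the columns of hIgG and vehicle are rounded to 1 decimal. From the scanned spots the table was rebuilt with the mean of the blank spots after dropping 5% of them at each end and detection at 2 SD above it. The rebuilt detection differed for 0 probes, and the blank rule was inferred from this match. The genome build behind the probes is not given in the sources used here, so that no probe positions are printed, and the coordinates of promoter stretches are those of RefSeq.

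Of 23473 probes 20690 were named with 1 gene through the platform annotation and 2783 were not, and symbols were updated by gene identifier (20556) or accession (9), with 125 kept. Genes used the probes detected on all 3 arrays. Counts used 1.5-fold, or 2-fold where stated. The members and lists were chosen with earlier results of these data known. All 40 members are accounted for, and genes of the pathway lists are named by the rule of all genes of a list with up to 10, otherwise the 2 highest and 2 lowest against hIgG and those 2-fold apart. Ifng was named outside this rule, after its values were seen. No p-value is given, since 1 array per condition allows no test. The alternatives were the rebuilt signals, scaling by the 75th percentile or by jointly detected probes, cyclic loess, quantile normalization and normexp. Normexp used the background column and an offset of 50 and was followed by quantile normalization. Further alternatives were the brightest probe of each gene, undetected probes set to 1, a mean signal of at least 25 and 2-fold. The counting was tested on simulated arrays. Python 3.11.15, numpy 2.4.6, pandas 2.3.3, matplotlib 3.10.9, R 4.3.3 and limma 3.58.1 were used. Promoter sequences are from RefSeq (GRCm38.p6). An item of the pathway lists is not reported here.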

Additional observations from a re-analysis of the deposited data

How the results depend on the processing

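No paired analysis was possible because every condition was measured once. Apart from normexp and the 2-fold limit, under the other 8 alternatives the median of the members relative to all genes stayed between -0.56 and -0.50 for CTLA-4-Ig/hIgG, between -0.19 and -0.15 against vehicle and between 0.31 and 0.34 for hIgG/vehicle. The values nearest to 0, -0.50 against hIgG and -0.15 against vehicle, came from the floor of 1 for undetected probes, under which more dim genes count among all genes. Quantile normalization and cyclic loess moved the median of all genes against hIgG from 0.09 to 0.00447 and 0.00509. With normexp on the background column, which follows the spot signal, the relative medians were -0.00725, 0.00206 and 0.00873, of which the one against vehicle changed sign. With it 22 members lay below all genes against hIgG, 18 against vehicle and 22 above for hIgG/vehicle, 8 were highest with hIgG and lowest with CTLA-4-Ig, 0 were 1.5-fold lower against hIgG, and 2 were 1.5-fold apart in each direction against vehicle and for hIgG/vehicle. Of the 39 single ratios, 15 changed sign with it against hIgG, 16 against vehicle and 17 for hIgG/vehicle. The 4 that had been 1.5-fold apart before were Oasl2 (0.0161), Ifit1 (0.0759), Cmpk2 (0.0564) and Xaf1 (0.0366), all against hIgG. With normexp the standard deviations over all genes were 0.24 for CTLA-4-Ig/hIgG, 0.49 for CTLA-4-Ig/vehicle and 0.45 for hIgG/vehicle. Without it they were 0.26, 0.27 and 0.24. The cause of these changes with normexp was not tested. At 2-fold, 0 members were lower against hIgG, 0 against vehicle and 0 higher for hIgG/vehicle. A mean signal of at least 25 left 36 members and removed Oas3, so that 0 were higher against hIgG and 0 against vehicle. The brightest probe gave 2 members 1.5-fold lower than vehicle, Ifit1 and Mx1. Quantile normalization and cyclic loess gave 2 members 1.5-fold higher for hIgG/vehicle. Without normexp, 11 of 927 single ratios changed sign, all of them near 0.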

Other observations

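Relatives and partners of the antiviral genes were listed too. Of 25 genes 19 had a named probe and 17 were detected on all 3 arrays, with median log2 ratios of -0.08, 0.20 and 0.31 for CTLA-4-Ig/hIgG, CTLA-4-Ig/vehicle and hIgG/vehicle. For CTLA-4-Ig/hIgG, 12 lay below the median of all genes and 5 above it. Ifi44l, a relative of Ifi44, was the lowest, with signals of 147 with CTLA-4-Ig, 259 with hIgG and 154 with vehicle, so that hIgG stood apart and the other arrays lay together. Parp12, an ADP-ribosyltransferase, was next, with 130, 177 and 142 in the same order.

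The highest of these relatives against hIgG were Ifitm7, with 9.5, 5.5 and 6.7, and Oas1d, an Oas1 gene expressed in oocytes, with 3.06, 2.1 and 1.3. Oas1d and Ifi27l2b, with 4.43, 3.3 and 2.1, were the relatives at least 2-fold higher with CTLA-4-Ig than with vehicle, at log2 ratios of 1.24 and 1.08. Like Oas3 they are dim, and over all genes 0.653% were 2-fold higher with CTLA-4-Ig than with vehicle, against 0.147% that were 2-fold lower.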
